A study of Homo sapiens with 6 samples.

Results

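The kinesins are the microtubule motor genes whose symbols begin with KIF or KIFC followed by a number, and 42 such protein-coding genes on the primary chromosomes stood among the 67130 genes of the expression table. The remaining 6 entries with such a symbol lay on alternative contigs or were not protein coding, and all were at 0. By their known roles the 42 were divided into 14 mitotic kinesins, 10 kinesins of the cilium and centriole, 13 of intracellular transport and 5 others. RNA-seq was done in 6 samples of hTERT-RPE1, a telomerase-immortalized human retinal pigment epithelial line of wild-type genotype that carries a lentivirus-delivered, doxycycline-inducible hairpin (shRNA) directed at OFD1, a protein of centrioles and centriolar satellites. The 3 control samples grew without doxycycline and the 3 OFD1-depleted samples grew in 200 ng/mL doxycycline, both for 72 h. Both groups carry the hairpin construct, and 0 samples received doxycycline without it, so the effects of doxycycline and of the depletion cannot be told apart. The comparison asks which motors of the spindle, the cilium and the cargo routes differ in mRNA level when OFD1 is depleted.

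Kinesins use ATP to step along or to take apart microtubules. In a dividing cell, mitotic kinesins push the spindle poles apart, move and align chromosomes, and build the midzone at which the cell is cut, and many of their genes are switched on shortly before mitosis. Other kinesins run through the whole life of the cell, carrying vesicles, mitochondria and endosomes, while kinesin-2 motors carry building material up the primary cilium, the antenna that RPE1 cells grow from the centriole when they stop dividing.

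Expression was measured as FPKM, the fragments of a gene divided by transcript length and by the fragments of its sample, so that levels of different genes can be set side by side. OFD1 had 3.34, 3.62 and 3.44 FPKM in the control samples and 0.795, 0.763 and 1.43 FPKM in the OFD1-depleted samples. Its log2 fold change was -1.75 (SE 0.255, limma adjusted p = 0.00085), and the groups did not overlap. Summed FPKM lay between 408302 and 414547 in control and between 433262 and 493510 in OFD1-depleted samples, and the table gives no read counts, so the depth is not known exactly. Mitochondrially encoded genes made up 8.66% to 13.8% of the summed FPKM in control and 15.6% to 19.3% in OFD1-depleted samples. Of 8 markers of differentiated retinal pigment epithelium, only MITF and OTX2 had a mean of at least 1 FPKM, RPE65 and RLBP1 were near 0 and TTR was at 0, whereas the keratins KRT8, KRT18 and KRT7 were abundant and EPCAM was at 0. The summed retinal pigment epithelium markers lay between 7.34 and 7.79 FPKM in control and between 9.81 and 12.4 FPKM in OFD1-depleted samples. The 12.4 rests on BEST1, at 4.33 FPKM in OFD1-depleted replicate 2 and at most 0.0475 FPKM elsewhere, and without BEST1 the sums lay between 7.29 and 7.78 and between 8.07 and 10.5 FPKM. Epithelial markers summed to 275 to 293 and to 310 to 443 FPKM, and fibroblast markers to 24.6 to 33.7 and to 36.2 to 47.2 FPKM. The fibroblast markers did not move together. COL1A1 (7.66 to 9.96 against 21.9 to 28.4 FPKM) and DCN (0.754 to 0.93 against 1.78 to 2.02 FPKM) were higher in OFD1-depleted samples. PDGFRB went from 15.2 to 22.7 FPKM down to 12.1 to 16.6 FPKM, and COL1A2 and LUM did not exceed 0.237 FPKM. Photoreceptor markers summed to at most 0.427 FPKM, with 4 of 6 at 0. The part of these shifts in the kinesin results was not tested. OFD1-depleted replicate 2 stood apart by transcript length: against the other OFD1-depleted samples its median log2 difference was 0.254 for the 4003 genes with the shortest transcripts and -0.367 for the 4000 with the longest. In that sample the median was -0.512 for the transport kinesins, whose median transcript is 6007 bases long, and -0.300 for the mitotic kinesins, at 3874 bases.

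The promoters of the mitotic kinesins shared short sequence words that most other kinesin promoters did not hold. In the cell cycle homology region (CHR), spelled TTTGAA or TTCGAA, the MuvB complexes are known to bind, which silence genes in resting cells and activate them before mitosis, and the factor NF-Y binds CCAAT. From 100 bases before to 50 bases after the RefSeq start, on either strand, a CHR word was found in 10 of the 12 mitotic kinesins with a mean of at least 1 FPKM (83.3%). The same held for 1 of 13 other kinesins at that level with a promoter sequence (7.69%), for 4.18% of the 9029 promoters of genes tested and for 7.43% of all 27305 promoters of that length. CCAAT was found in 10 of the 12 mitotic kinesins (83.3%), 3 of the 13 others (23.1%), 24.2% of the promoters of genes tested and 22% of all. Both words stood together in 9 of the 12 (75%), 1 of the 13 (7.69%), 1.36% of the promoters of genes tested and 1.86% of all. The E2F words TTTCCCGC, TTTGGCGC or TTTCGCGC were found in 1 of the 12, KIF15, in 0 of the 13, in 2.38% of the promoters of genes tested and in 1.41% of all. None of the words found in kinesin promoters shared a base with another, and a match is a description of the letters, not of binding.

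The windows below (RefSeq, GRCh38.p14) show the range of these promoters, 5′ to 3′ along the gene, with CHR and CCAAT words in capitals in whichever orientation they stand (TTCAAA and ATTGG are the reverse complements). KIF11 (chr10:92593030-92593179, + strand), KIF22 (chr16:29790651-29790800, + strand) and KIF18A (chr11:28108107-28108256, - strand) hold both words, and KIF18A is the mitotic kinesin with the smallest fall. KIF15 (chr3:44761694-44761843, + strand) holds a CHR word without CCAAT, KIF20A (chr5:138179012-138179161, + strand) holds CCAAT without a CHR word, and KIF2C (chr1:44739737-44739886, + strand) holds neither. KIF24 (chr9:34329219-34329368, - strand) is the only kinesin outside the mitotic group, of those with a promoter sequence, with both words in this window. KIF5B (chr10:32056376-32056525, - strand) is a transport motor whose window holds CCAAT without a CHR word. It is not typical: the windows of KIF1B, KIF1C, KIF13A, KIF16B and KIF21A, the other tested transport motors with a promoter sequence, hold neither word.
KIF11: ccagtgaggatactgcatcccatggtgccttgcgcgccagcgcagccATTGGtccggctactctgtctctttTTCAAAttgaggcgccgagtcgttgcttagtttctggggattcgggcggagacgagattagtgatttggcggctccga
KIF22: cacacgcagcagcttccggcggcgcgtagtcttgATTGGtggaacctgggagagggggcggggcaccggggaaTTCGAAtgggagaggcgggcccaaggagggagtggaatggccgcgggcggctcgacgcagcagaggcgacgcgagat
KIF18A: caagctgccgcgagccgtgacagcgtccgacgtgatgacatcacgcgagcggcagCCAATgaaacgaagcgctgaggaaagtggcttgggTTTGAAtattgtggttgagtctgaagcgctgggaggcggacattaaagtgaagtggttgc
KIF15: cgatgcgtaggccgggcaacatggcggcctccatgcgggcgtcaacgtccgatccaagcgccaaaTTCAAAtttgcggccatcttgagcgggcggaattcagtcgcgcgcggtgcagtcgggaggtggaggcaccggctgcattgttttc
KIF20A: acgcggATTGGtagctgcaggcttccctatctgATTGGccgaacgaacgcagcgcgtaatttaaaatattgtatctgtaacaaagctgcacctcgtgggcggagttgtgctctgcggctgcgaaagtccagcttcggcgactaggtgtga
KIF2C: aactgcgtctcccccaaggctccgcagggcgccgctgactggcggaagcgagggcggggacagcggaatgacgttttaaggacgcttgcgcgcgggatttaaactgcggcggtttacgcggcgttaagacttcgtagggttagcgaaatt
KIF24: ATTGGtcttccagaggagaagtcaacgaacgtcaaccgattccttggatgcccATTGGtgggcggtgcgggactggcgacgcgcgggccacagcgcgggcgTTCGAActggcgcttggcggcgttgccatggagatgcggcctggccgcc
KIF5B: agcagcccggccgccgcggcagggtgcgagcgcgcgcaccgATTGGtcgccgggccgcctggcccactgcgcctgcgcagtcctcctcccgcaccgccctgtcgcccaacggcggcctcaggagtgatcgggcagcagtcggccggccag
The RefSeq start lay within 500 bases of the gene start of the expression table in 22 of the 25 kinesins tested that have a promoter sequence. The exceptions were KIF11, whose RefSeq start is 19025 bases downstream of the table start, KIF24, whose RefSeq start lies outside the table's gene by 17897 bases, and KIF9, at 652 bases downstream.

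**Figure D1:**
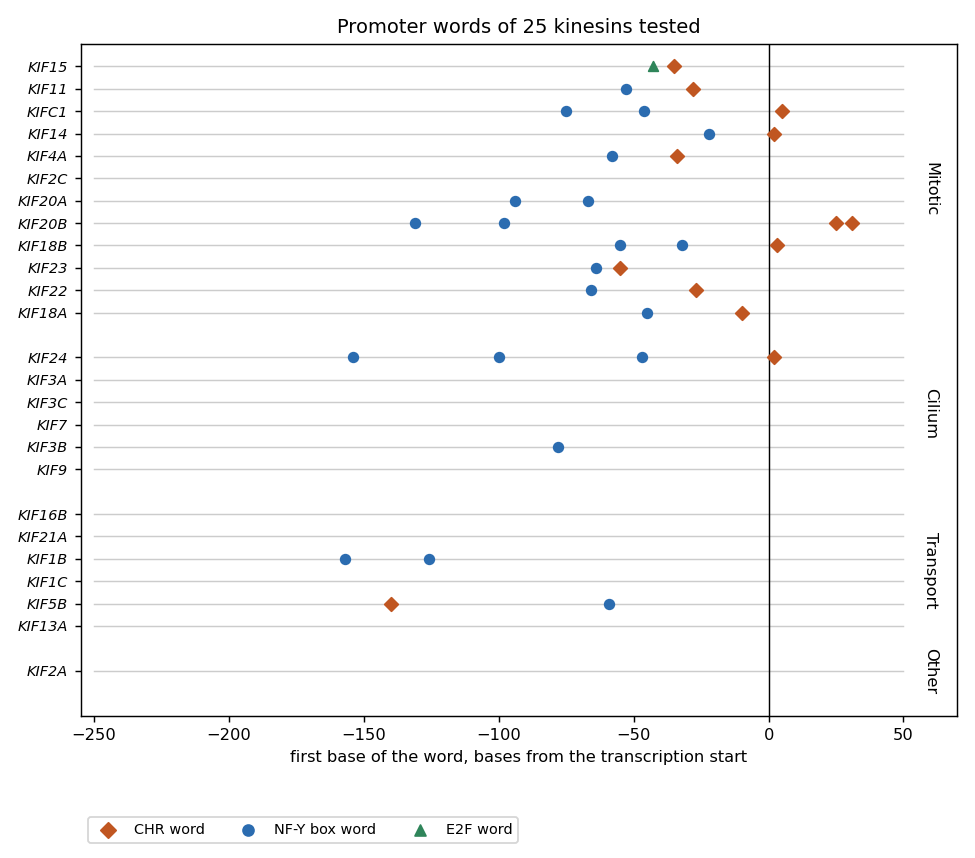
Position of promoter words in the 25 kinesins with a mean of at least 1 FPKM and a RefSeq promoter, by role and, within a role, by log2 fold change (most lowered first). The x axis is the first base of the word in bases from the transcription start, and diamonds, circles and triangles mark CHR, NF-Y box and E2F words. CHR words lie between -55 and 31 in 10 mitotic kinesins and at 2 in KIF24, while the CHR word of KIF5B lies at -140.

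All 12 mitotic kinesins that were tested fell in OFD1-depleted cells, and 11 of them fell by at least 1 on the log2 scale. Their median log2 fold change was -1.36, with a range from -1.87 to -0.67, against a median of -0.03 over the 12025 genes tested. The count rests on the role lists, which were chosen with earlier results of these data known. KIF2A shares its name with KIF2B and KIF2C of the mitotic list but was placed among the others. Its groups overlapped (log2 fold change -0.23, limma adjusted p = 0.34). Over all genes tested, 11.9% were lower and 5.07% higher with a limma adjusted p under 0.05 (1429 and 610 genes), and genes both past that threshold and lower by at least 1 made up 4.39%. Scaling to the same total (TPM), which moved the median of all genes by -0.147, gave 1974 lower and 264 higher genes, and quantile normalization gave 1317 lower and 1084 higher. Under both the number of mitotic kinesins called lower was 12. All 12 had higher values in every control sample than in any OFD1-depleted sample, a pattern found for 22.3% of genes in this direction and for 13.8% in the other. In the single OFD1-depleted samples the median difference from the control mean was -1.26, -1.52 and -1.38, and all 12 genes were lower in each. In bulk RNA, fewer cells of a type and less RNA per cell cannot be told apart.

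The first mitotic group builds the bipolar spindle. KIF11, the kinesin-5 motor that slides the poles apart, had 19.1, 23.3 and 19 FPKM in control and 6.87, 5.55 and 6.47 FPKM in OFD1-depleted samples (log2 fold change -1.68, SE 0.144, limma adjusted p = 3.3e-05). KIF15, the kinesin-12 motor that helps hold the poles apart, had 3.71, 4.88 and 4.15 FPKM and then 1.29, 0.764 and 1.28 FPKM, which left 26.1% of the control mean (log2 fold change -1.87, SE 0.239, limma adjusted p = 0.00036). This was the largest fall of any kinesin tested. The gene of KIF15 overlaps TMEM42 on the same strand over 3767 bases, and TMEM42 itself differed little (9.7, 9.68 and 10.7 against 9.66, 12.5 and 7.87 FPKM), so how shared reads were divided is uncertain. KIFC1, a kinesin-14 that walks to the minus end and focuses the poles, had 19.4, 20.6 and 21 FPKM in control and 7.16, 6.51 and 6.43 FPKM in OFD1-depleted samples (log2 fold change -1.59, SE 0.126, limma adjusted p = 2.1e-05). The opposed motors KIF11 and KIFC1 thus stood at nearly the same level in both groups, with means of 20.5 ± 2.44 and 20.3 ± 0.847 FPKM in control and of 6.3 ± 0.679 and 6.7 ± 0.397 FPKM after depletion (SD, n = 3 each).

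A further group moves chromosomes and sets microtubule length. KIF22, a chromokinesin that pushes chromosome arms towards the equator, had the highest control level of the mitotic kinesins, with 31.3, 33.4 and 33.7 FPKM, and 15.8, 18.8 and 12.3 FPKM in OFD1-depleted samples (log2 fold change -1.09, SE 0.158, limma adjusted p = 0.00083). KIF2C, which takes microtubules apart at centromeres, had 25.3, 28.1 and 26.6 FPKM and then 11, 9.59 and 10 FPKM (log2 fold change -1.38, SE 0.125, limma adjusted p = 4.3e-05). In both genes the groups were fully apart, and KIF2C is the only one of the 12 tested mitotic kinesins whose promoter window holds none of the words searched. KIF4A, a chromokinesin that also sets the length of the midzone, had 12.4, 14.5 and 11.9 FPKM and then 5.28, 3.96 and 4.82 FPKM (log2 fold change -1.45, SE 0.154, limma adjusted p = 0.00011). Its intronless near-copy KIF4B was listed at 0.0664 to 0.101 FPKM in control and 0.0172 to 0.057 FPKM in OFD1-depleted samples, and reads could be split between the pair. KIF18B, which shortens astral microtubules, had 4.93, 5.5 and 6.49 FPKM and then 2.5, 2.52 and 2.13 FPKM (log2 fold change -1.20, SE 0.171, limma adjusted p = 0.00072).

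KIF18A, the relative of KIF18B that damps the swings of aligned chromosomes, changed least of the 12. It had 6.31, 6.89 and 6.85 FPKM in control and 4.75, 3.51 and 4.34 FPKM in OFD1-depleted samples, so the groups still did not overlap. Its log2 fold change was -0.67 (95% CI -1.01 to -0.32, limma adjusted p = 0.014). The lower end of this interval lies above the log2 fold changes of the other 11. Some of their intervals still reach into it, such as those of KIF22 (95% CI -1.43 to -0.74) and KIF23 (95% CI -1.44 to -0.81). The difference between KIF18A and the other mitotic kinesins was not tested. The limma adjusted p rose to 0.055 without control replicate 2, to 0.067 without control replicate 3 and to 0.058 with no filter on low values.

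Another group works at the midzone and in cytokinesis, the final cut between daughter cells. KIF23, the motor subunit of centralspindlin, had 29.2, 33.6 and 29.6 FPKM in control and 14.8, 11.8 and 15.9 FPKM in OFD1-depleted samples (log2 fold change -1.13, SE 0.145, limma adjusted p = 0.00037). KIF20A, which brings the chromosomal passenger complex to the midzone, had 27, 20.8 and 24.2 FPKM and then 9.27, 9.89 and 9.2 FPKM (log2 fold change -1.33, SE 0.136, limma adjusted p = 9.2e-05). The OFD1-depleted samples of KIF20A lay within 1 FPKM of each other. KIF20B, needed for abscission, had 11.5, 14.3 and 10.9 FPKM and then 5.41, 4.04 and 4.92 FPKM (log2 fold change -1.33, SE 0.163, limma adjusted p = 0.00027). KIF14, which recruits citron kinase to the midbody, had 3.44, 3.83 and 3.61 FPKM and then 1.47, 0.729 and 1.55 FPKM (log2 fold change -1.53, SE 0.269, limma adjusted p = 0.0028). OFD1-depleted replicate 2 gave the lowest value of KIF14, as it did for KIF15.

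**Figure D2:**
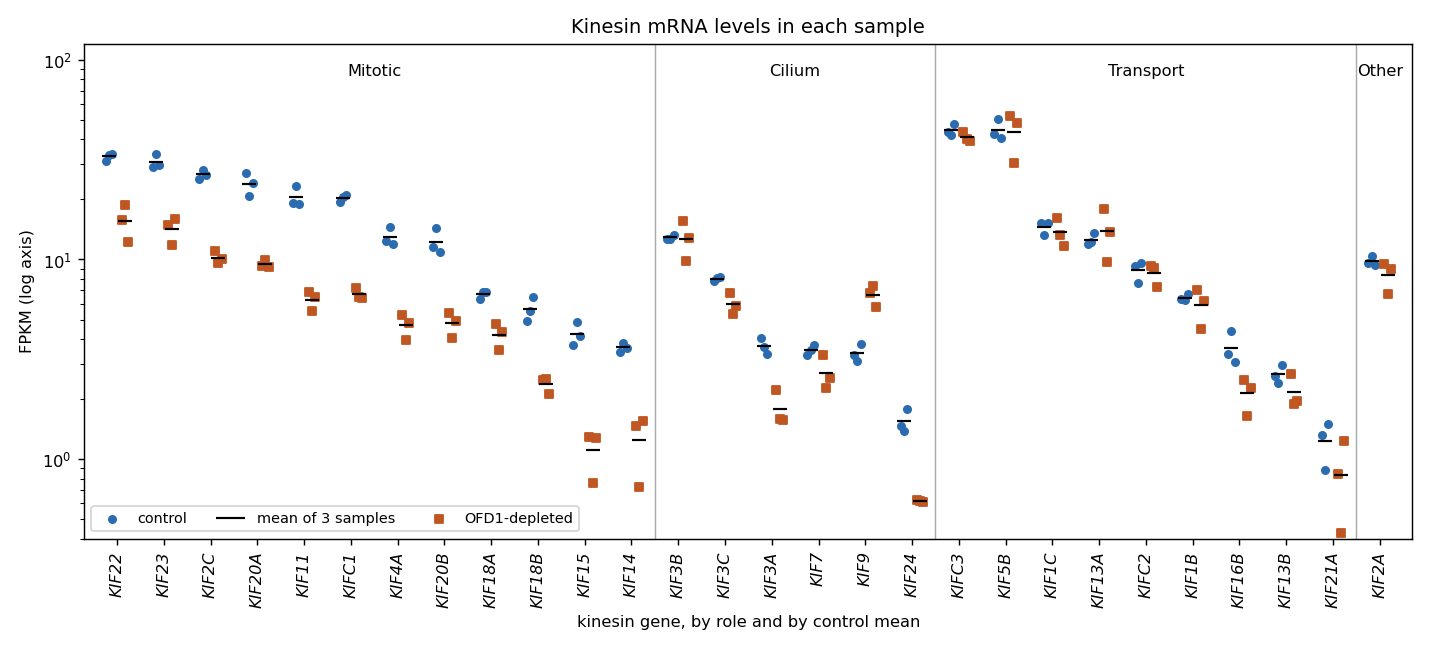
FPKM (log axis) of the 28 kinesins with a mean of at least 1 FPKM, by role and control mean, with each control sample as a circle, each OFD1-depleted sample as a square and the mean of 3 samples as a line. Circles and squares are fully separate for all 12 mitotic kinesins, whereas they overlap for 8 of 9 transport kinesins. Of all genes tested, 22.3% are fully separate with lower and 13.8% with higher OFD1-depleted values.

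The known partners of these motors were lower too. All 8 genes of a list of mitotic partners and regulators were lower with a limma adjusted p under 0.05, against 11.9% of all genes tested. Their median log2 fold change was -1.30, and the list, which includes CENPE, was chosen with earlier results of these data known. TPX2, which activates Aurora A on the spindle and restrains KIF11, had 42.9, 48.1 and 46.1 FPKM in control and 11.9, 11.4 and 11.3 FPKM in OFD1-depleted samples (log2 fold change -1.97, limma adjusted p = 8.7e-06). PRC1, which bundles midzone microtubules and binds KIF4A, had a log2 change of -1.42 (limma adjusted p = 7.2e-05), CIT, the citron kinase bound by KIF14, of -1.34 (limma adjusted p = 0.00034) and AURKB, the passenger kinase moved by KIF20A, of -1.11 (limma adjusted p = 0.00039). CENPE, a kinetochore kinesin whose symbol the selection does not match and which was named after its values were seen, had 7.5, 8.11 and 7 FPKM in control and 3.23, 1.92 and 2.98 FPKM in OFD1-depleted samples (log2 fold change -1.47, limma adjusted p = 0.00052).

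Ratios between genes of related roles, chosen after their values were seen, cancel any scaling of a whole sample. KIF23 over RACGAP1, the other subunit of centralspindlin, was 1.02 ± 0.093 in control and 1.07 ± 0.11 in OFD1-depleted samples (SD, n = 3 each; two-sided exact permutation test, p = 0.5). KIF4A over PRC1 was 0.25 ± 0.031 and 0.243 ± 0.015 (SD, n = 3 each; two-sided exact permutation test, p = 0.8). In both pairs the means of the ratio differed by less than either SD, and 3 samples against 3 cannot give a p under 0.1. KIF15 over KIF11 went from 0.208 ± 0.012 to 0.174 ± 0.032 (SD, n = 3 each; two-sided exact permutation test, p = 0.2), with overlapping groups.

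Mitotic kinesins made up a smaller share of all kinesin mRNA, and transport kinesins a larger one, in OFD1-depleted samples. Summed over the 14 genes, the mitotic kinesins had 194, 210 and 198 FPKM in control and 85.6, 77.6 and 79.4 FPKM in OFD1-depleted samples, which left 40.3% (36.5% with TPM scaling). The 13 transport kinesins summed to 136, 140 and 141 FPKM in control and to 152, 111 and 132 FPKM after depletion, with the control range inside that of the OFD1-depleted samples. The mitotic kinesins were 51.9%, 53.3% and 51.6% of all kinesin FPKM in control and 30.1%, 34.7% and 31.7% in OFD1-depleted samples. The share of transport kinesins went from 36.5%, 35.5% and 36.8% to 53.6%, 49.8% and 52.6%. These shares do not depend on the scaling of a sample, and neither share overlapped between the groups. All shares of a sample add up to the whole, so the other shares together must rise when the mitotic share falls. The larger transport share is therefore not a separate result.

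**Figure D3:**
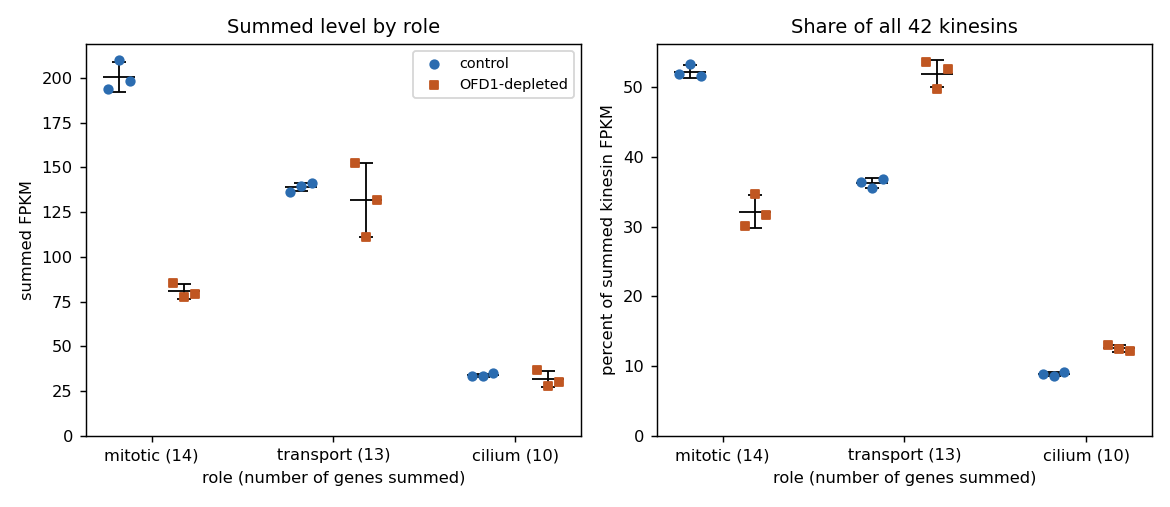
Summed FPKM (left) and percent of the summed FPKM of all 42 kinesins (right) for the mitotic, transport and cilium kinesins, with each sample as a point and the mean ± SD of 3 samples in black. The mitotic share lies between 51.6% and 53.3% in control and between 30.1% and 34.7% in OFD1-depleted samples. The transport share, a part of the same total, moves the other way, while the transport sums overlap.

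Of the 6 kinesins of the cilium and centriole tested, 2 fell, 1 rose and 3 did not pass the threshold, with a median log2 fold change of -0.40, where 11.9% of all genes were lower and 5.07% higher past it. KIF9 (ENSG00000088727, GRCh38 chr3:47228395-47283451), a kinesin of motile cilia and flagella, was the only kinesin of the 28 that was higher past the threshold. It had 3.31, 3.09 and 3.79 FPKM in control and 6.79, 7.36 and 5.77 FPKM in OFD1-depleted samples (log2 fold change 0.95, SE 0.161, limma adjusted p = 0.0022). Every OFD1-depleted value exceeded every control value, and the limma adjusted p stayed under 0.05 in each of 17 alternatives, with a log2 fold change between 0.80 and 1.06. On the opposite strand KIF9 shares 18207 bases with the antisense gene KIF9-AS1, which was at 0.531 to 0.785 FPKM in control and 0.378 to 0.731 FPKM in OFD1-depleted samples, and it also overlaps KLHL18 (log2 fold change 0.04).

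KIF3A and KIF3B form, with KIFAP3, the kinesin-2 motor that drives anterograde transport in the cilium, but only KIF3A passed the threshold. KIF3A (ENSG00000131437, GRCh38 chr5:132692628-132737638) had 4.04, 3.63 and 3.36 FPKM in control and 2.21, 1.59 and 1.58 FPKM in OFD1-depleted samples (log2 fold change -1.01, SE 0.2, limma adjusted p = 0.0057). KIF3B had 12.7, 12.7 and 13.3 FPKM and then 15.6, 9.8 and 12.8 FPKM, with overlapping groups (log2 fold change -0.04, 95% CI -0.41 to 0.32, limma adjusted p = 0.89). Without OFD1-depleted replicate 2 the log2 fold change of KIF3B was 0.13. KIF3A over KIF3B was 0.319, 0.285 and 0.253 in control and 0.142, 0.163 and 0.124 in OFD1-depleted samples, with means of 0.286 ± 0.033 and 0.143 ± 0.019 (SD, n = 3 each). The groups of ratios were fully apart (p = 0.1 by exact permutation, two-sided, the lowest value possible in this design). KIFAP3, the accessory subunit, did not pass the threshold (log2 fold change 0.09, limma adjusted p = 0.75).

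KIF24, a centriolar kinesin that takes microtubules apart and holds back cilium assembly, had 1.47, 1.39 and 1.79 FPKM in control and 0.625, 0.614 and 0.607 FPKM in OFD1-depleted samples. Its log2 fold change was -1.20 (SE 0.28, limma adjusted p = 0.013), the largest fall outside the mitotic group, and its promoter is the KIF24 window printed above. With a mean just over 1 FPKM it was close to the limit for testing: the limma adjusted p was 0.053 without control replicate 1, and without control replicate 3 the gene fell under the filter. KIF3C, which can replace KIF3B beside KIF3A, had 7.78, 8.1 and 8.2 FPKM and then 6.81, 5.31 and 5.88 FPKM, with no overlap. Its log2 fold change of -0.42 had a limma adjusted p of 0.068, the value nearest to the threshold from above, and 0.037 with TPM scaling. KIF7, which organizes the tip of the cilium in Hedgehog signalling, had 3.34, 3.51 and 3.72 FPKM and then 3.31, 2.26 and 2.56 FPKM (log2 fold change -0.38, limma adjusted p = 0.19), and it overlaps the S-phase gene TICRR (log2 fold change -1.27) over 22268 bases on the opposite strand.

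Of the 9 transport kinesins tested, 1 fell and 8 did not pass the threshold, a share close to that of all genes (11.9% lower). Their median log2 fold change was -0.12. KIF5B, the heavy chain of conventional kinesin, had 42.4, 50.5 and 40.6 FPKM in control and 52.4, 30.5 and 48 FPKM in OFD1-depleted samples (log2 fold change -0.06, 95% CI -0.49 to 0.36, limma adjusted p = 0.86). KIFC3, a minus-end motor of cell junctions, had 43.7, 42.1 and 47.6 FPKM and then 43.6, 40.2 and 39.1 FPKM (log2 fold change -0.12, 95% CI -0.38 to 0.15, limma adjusted p = 0.56). These were the most abundant kinesins, and for both the interval left out a fall as large as the -0.67 of KIF18A. For KIF5B, OFD1-depleted replicate 2 was the lowest of the 6 samples, and without it the log2 fold change was 0.18. KIF1C, a fast long-range vesicle motor, had 15.3, 13.2 and 15.3 FPKM and then 16.2, 13.3 and 11.7 FPKM (log2 fold change -0.10, 95% CI -0.43 to 0.23, limma adjusted p = 0.71). KIF13A, a motor of recycling endosomes, had 11.9, 12.2 and 13.6 FPKM and then 17.9, 9.75 and 13.8 FPKM (log2 fold change 0.09, 95% CI -0.34 to 0.52, limma adjusted p = 0.80).

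KIF16B, which carries early endosomes outwards, was the only transport kinesin past the threshold. It had 3.37, 4.36 and 3.08 FPKM in control and 2.5, 1.64 and 2.26 FPKM in OFD1-depleted samples, without overlap (log2 fold change -0.73, SE 0.216, limma adjusted p = 0.039). This call was the least stable of the 16: of the 6 comparisons that left out a sample, only that without OFD1-depleted replicate 1 kept it (limma adjusted p = 0.037). The value was 0.055 without OFD1-depleted replicate 2, 0.073 without OFD1-depleted replicate 3, 0.09 without control replicate 1, 0.14 without control replicate 2 and 0.066 without control replicate 3. The other 4 transport kinesins tested, KIFC2, KIF1B, KIF13B and KIF21A, had log2 fold changes from -0.05 to -0.59 with overlapping groups. KIF2A, a microtubule depolymerase placed among the others, had 9.65, 10.4 and 9.41 FPKM and then 9.5, 6.74 and 8.97 FPKM (log2 fold change -0.23, limma adjusted p = 0.34). It overlaps DIMT1 over 43742 bases on the opposite strand. DIMT1 rose from 9.22, 9.02 and 8.06 FPKM to 14.3, 15 and 15.2 FPKM (log2 fold change 0.76, limma adjusted p = 0.0021). The part of this overlap in the values of KIF2A was not tested.

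**Figure D4:**
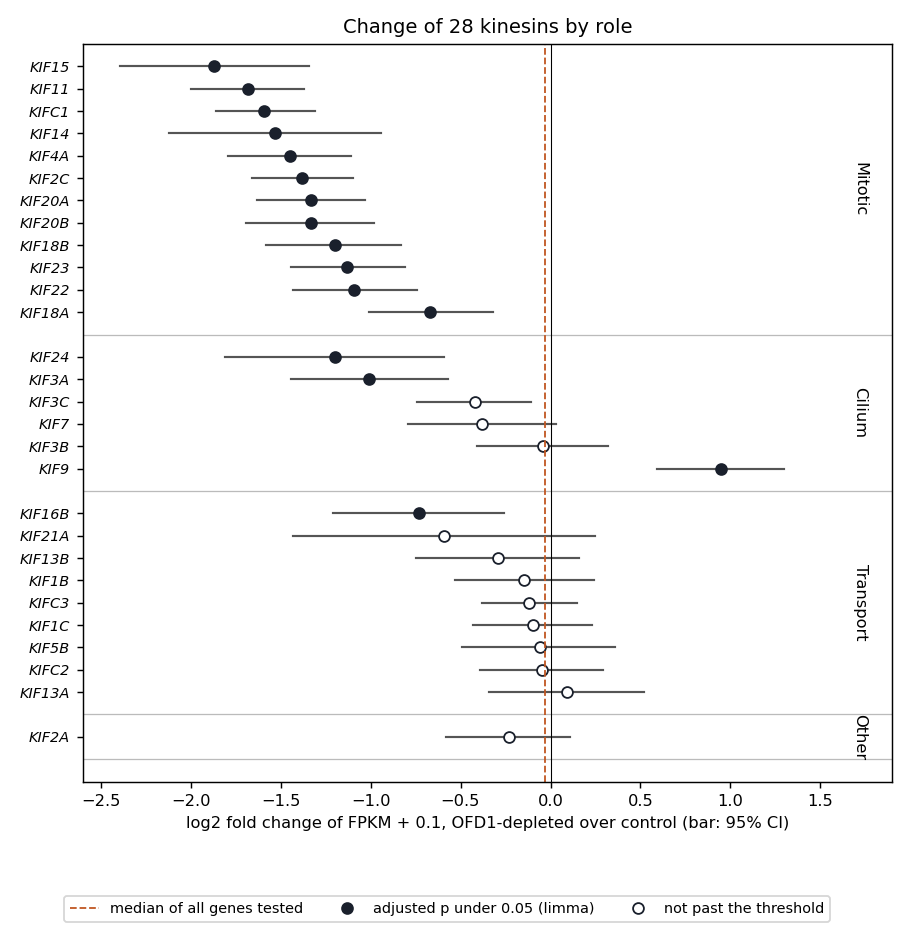
Log2 fold change of FPKM + 0.1, OFD1-depleted over control, with its 95% confidence interval (limma), for 28 kinesins by role. Filled points have an adjusted p under 0.05 and the dashed line marks the median of all genes tested (-0.03). The 12 mitotic kinesins lie between -1.87 and -0.67, while 12 of the other 16 did not pass the threshold. KIF9 (0.95) is the only kinesin higher past it.

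The adaptors and the opposing motors of the same tracks were compared as lists. Of 9 cargo adaptors and regulators of kinesins tested, 2 fell and 0 rose (median log2 fold change -0.01). These counts, and those of the dynein lists, are small and are read beside the 11.9% lower and 5.07% higher of all genes tested. KIFBP, which binds motor domains of several kinesins and keeps them off microtubules, had 25.5, 32.2 and 29 FPKM in control and 14.8, 13.2 and 12.5 FPKM in OFD1-depleted samples (log2 fold change -1.09, limma adjusted p = 0.00033). TRAK2, which ties KIF5 motors to mitochondria, had 15, 15.4 and 14.7 FPKM and then 9, 6.24 and 8.57 FPKM (log2 fold change -0.93, limma adjusted p = 0.0021). MAPK8IP3, a scaffold for axonal cargo, did not pass the threshold (log2 fold change 0.32, limma adjusted p = 0.19). Of 18 genes of cytoplasmic dynein and dynactin tested, the motor that runs against kinesins, 1 fell and 0 rose (median 0.10). That gene was DYNLL2, a light chain, with 10.9, 10.8 and 10 FPKM in control and 5.79, 5.85 and 5.27 FPKM in OFD1-depleted samples (log2 fold change -0.89, limma adjusted p = 0.00093). DYNLRB1, DYNLT1 and ACTR10 had log2 fold changes of 0.34, 0.31 and 0.25 that did not pass the threshold (limma adjusted p = 0.12, 0.14 and 0.20).

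In dynein-2, the motor that brings kinesin-2 and its cargo back down the cilium, 1 of 5 genes rose and 0 fell (median 0.21). DYNC2LI1, its light intermediate chain, had 7.52, 8.74 and 7.8 FPKM in control and 17.6, 19.7 and 16.9 FPKM in OFD1-depleted samples (log2 fold change 1.16, limma adjusted p = 0.00017). The groups were far apart, with every OFD1-depleted value above every control value. DYNC2I2, DYNLT2B and DYNC2H1 had log2 fold changes of -0.41, -0.35 and 0.29 (limma adjusted p = 0.075, 0.20 and 0.26).

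The remaining 14 kinesins were under a mean of 1 FPKM and were not tested. Of these, KIF2B, KIF1A, KIF12, KIF25 and KIF26A were at 0 in all 6 samples. KIF4B, KIF6, KIF19, KIF5A, KIF5C, KIF21B and KIF26B did not exceed 0.14 FPKM in any sample. KIF17 and KIF27 were the highest of the 14, with 0.3 to 0.482 and 0.389 to 0.575 FPKM in control and 0.456 to 0.667 and 0.439 to 0.75 FPKM in OFD1-depleted samples, and the groups overlapped. Many of the silent members, such as KIF1A, KIF5A and KIF5C, are known as motors of neurons.

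A last description concerns the hairpin itself. A short hairpin RNA guide can pair through its positions 2 to 8 with other mRNAs, and for the shRNA against OFD1 that the study lists, the pairing word read from the OFD1 transcript is ACTAGAA. Which hairpin this line carries is not stated in the sources used here, so the matches assume the listed one. In 3′ UTRs of GENCODE version 44 the word occurred in 11.8% of 10629 tested genes, in 0 of 12 mitotic kinesins, in 1 of 6 cilium kinesins and in 2 of 9 transport kinesins. Among tested genes, 29.5% of the 1249 with a match and 10.7% of the 9380 without were lower with a limma adjusted p under 0.05, and their median 3′ UTR lengths were 3400 and 1164 bases. The kinesins with a match were KIF3A (2 matches, the first at chr5:132696278-132696304), KIF16B (1, chr20:16272389-16272415) and KIF13A (1, chr6:17763936-17763962), all on the - strand of GRCh38. Both non-mitotic kinesins lower past the threshold besides KIF24 thus hold the word there, as does KIF13A, whose log2 fold change was 0.09. Of the partners named above, the 3′ UTRs of TPX2 and TRAK2 hold 1 match each and that of DYNLL2 holds 2. The part of such pairing in these changes was not tested. A site of each gene is given in the sense of the mRNA, written in DNA letters with 10 bases on either side and the word in capitals.
KIF3A: tatttaggtaACTAGAAtttcaaaata
KIF16B: tggctggaaaACTAGAAtttatagcag
KIF13A: tgttttgggaACTAGAAcgcaattgtg
In coding sequence the word occurred 3 times in KIF15 and 1 time each in KIF11, KIF14 and KIF20B, and the other 8 tested mitotic kinesins had no match in either. Outside the mitotic group KIF24, KIF3A and KIF21A each held 1 match in coding sequence.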

How the data were processed

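Per the labels and the methods, the authors sequenced paired-end libraries, aligned the reads with HISAT2 (version 2.0.5 in the submitters' processing notes) to GRCh38 and deposited 1 table of StringTie FPKM values per gene and sample. The methods name Ensembl version 94. The labels name both a TruSeq and a directional NEBNext kit, and the strand setting of the counting is not given in the sources used here, so genes that overlap on opposite strands are uncertain. The labels also give retina as tissue and describe dissected retinas, although all other fields describe cultured RPE1 cells. The study calls the samples biological replicates, and the labels do not say how the cultures were separated.

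Groups came from the sample titles and treatments. Log2(FPKM + 0.1) was compared with limma (version 3.58.1, R 4.3.3; trend of variance on mean) for 12025 genes whose mean FPKM was 1 or more, two-sided, with Benjamini-Hochberg adjustment over all of them. Fold changes are on the log2(FPKM + 0.1) scale, which understates the change of low genes. The script was tested on simulated data. A mean ± SD covers 3 samples. The alternatives tried were other pseudocounts (0.01 and 1), other filters (none, and a mean FPKM of 5 or more), other scalings (TPM, median of ratios, quantiles), limma with array weights or with no trend, protein-coding genes only, a replicate block and each sample left out.

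The kinesins, role lists, partner lists and promoter words were chosen with earlier results of these data known. Genes named are OFD1, all mitotic kinesins tested, other kinesins past the threshold or among the 4 highest of their role, the members nearest to the threshold on either side (KIF16B and KIF3C), those under 1 FPKM and up to 4 partners per list with the smallest p. Promoters of 34 of the 42 kinesins were matched by symbol in RefSeq (250 bases before to 50 after the start). KIFC3, KIFC2, KIF21B, KIF26B, KIF27, KIF19, KIF13B and KIF5A have none there. UTRs came from GENCODE 44 canonical transcripts. Protein sequences were not used here, and 1 sequence is not reported here. Intervals cover the spread of samples only, and approximate depth was not used in any test. Sequences were searched in Python 3.11.15.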

Additional observations from a re-analysis of the deposited data

How the results depend on the processing

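Of 463 values of single kinesins under 17 alternatives, 434 kept their direction and side of the threshold, 11 were no longer past it, 3 newly passed it and 15 changed sign. All sign changes were in 6 kinesins that never passed the threshold. They were KIF3B (0.01 with median-of-ratios scaling, 0.05 with quantile normalization, 0.09 with array weights, -0.20 to 0.13 with a sample left out), KIF13A (-0.05 with TPM, -0.11 to 0.32), KIF5B (0.17 with array weights, -0.21 to 0.18), KIFC2 (0.00 with median-of-ratios scaling, 0.05 with quantile normalization, -0.16 to 0.05), KIF1B (-0.29 to 0.03) and KIF1C (-0.22 to 0.01). Mitotic kinesins called lower numbered 11 with no filter, 9 at a mean of at least 5 FPKM, where KIF14, KIF15 and KIF18B were not tested, 11 or 12 with a sample left out and 12 in all other alternatives. Over all genes, 823 lower and 260 higher were called with no filter and 2263 and 1693 with array weights. TPM gave 264 higher, quantile normalization 1084, and leaving out a sample 882 to 1766 lower and 252 to 1097 higher. Cilium kinesins called lower numbered 0 at a mean of at least 5 FPKM, where both were no longer tested, and 1 to 3 with a sample left out. The 1 transport call was lost (0) with no filter, with a mean of at least 5 FPKM and with quantile normalization, and numbered 0 to 1 with a sample left out. The cause of the other changes was not tested.

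Replicate numbers are shared between groups. Deviations from the group means correlated across genes at 0.0579, 0.0481 and 0.011 between samples of the same number. Between samples of different numbers the mean correlation was -0.0192, and 4 of 6 samples correlated best with their own number. Whether the numbers pair the samples cannot be decided from these few values, and the main comparison did not pair them. A replicate block gave 1534 lower and 762 higher genes, and the kinesin calls were unchanged at 12 mitotic, 2 cilium and 1 transport lower and 1 cilium higher.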
